A study of Homo sapiens with 12 samples.

Results

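The genes described here are 37 human genes of the ATF4 and amino acid response, measured with Illumina bead arrays in HEK293T cells, a human embryonic kidney line that carries the SV40 large T antigen. They were taken by name from the probe-to-gene table, in which all 37 had at least 1 probe and 53 probes in all, of 20046 named genes on the array. A probe counted as detected with a detection p-value under 0.01 on at least 2 of the 12 arrays, which held for 45 of the 53 probes. For each gene the brightest of its detected probes was used, so that 35 members were tested among 10645 genes, and CHAC1 and SLC1A4 were not. The cells were transiently transfected with plasmids and harvested 48 h later. The 6 groups were Control (empty vector), GADD45a (human GADD45a), ING1b (human full-length ING1b), GADD45a+ING1b (both plasmids), ING1bΔPHD (human ING1b without its PHD domain) and GADD45a+ING1bΔPHD. Each group had 2 replicates from separate transfections, and all values come from whole transfected cultures, which can hold cells that took up no plasmid. Fewer cells that express a gene and less RNA per cell cannot be told apart in such samples.

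ATF4 is a transcription factor whose messenger RNA is translated efficiently when the initiation factor eIF2 is phosphorylated, which happens under amino acid shortage through the kinase GCN2 and under endoplasmic reticulum stress through PERK. With C/EBP partners it binds composite elements near genes that make amino acids, carry them into the cell and load them onto tRNA. Prolonged activity also raises DDIT3 (CHOP) and TRIB3, which are linked to cell death and to feedback on the pathway. Since ATF4 itself is controlled largely at translation, its message and its activity need not move together.

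The composite element was searched as TGATGNAA on both strands of the RefSeq promoters of GRCh38.p14, from 250 bases before to 50 bases after each start site. Promoters were found for 31 members, and 12 of these genes (38.7%) held a match, against 1217 of 27305 genes (4.46%). By promoter, 12 of 50 (24%) and 1270 of 35116 (3.62%) held it. The stretches below show the match, in capitals, in 6 members from 4 roles (regulators, enzymes, transporters and tRNA charging), each in the direction of transcription and ending before the start site. A match on the opposite strand reads as its reverse complement. ASNS, CEBPG and SLC1A5 had more than 1 start site, and the windows of their other start sites held no match. A match is a string of letters and not a bound site, and none was found in these windows of PSAT1, TRIB3 or DDIT3.
ASNS (chr7:97872429-97872516, minus strand, match from base -68): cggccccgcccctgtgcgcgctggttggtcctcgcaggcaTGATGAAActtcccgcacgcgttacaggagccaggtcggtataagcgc
CEBPG (chr19:33374031-33374112, plus strand, match from base -42): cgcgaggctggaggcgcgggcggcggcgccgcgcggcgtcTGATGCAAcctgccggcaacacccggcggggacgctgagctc
CHAC1 (chr15:40953222-40953309, plus strand, match from base -209): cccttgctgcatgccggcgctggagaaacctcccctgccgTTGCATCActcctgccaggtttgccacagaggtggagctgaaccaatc
SLC1A5 (chr19:46784864-46784951, minus strand, match from base -97): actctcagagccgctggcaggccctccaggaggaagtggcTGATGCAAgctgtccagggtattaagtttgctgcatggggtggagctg
AARS1 (chr16:70289646-70289733, minus strand, match from base -187): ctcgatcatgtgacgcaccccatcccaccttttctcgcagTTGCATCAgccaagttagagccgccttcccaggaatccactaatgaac
IARS1 (chr9:92293698-92293750, minus strand, match from base -13): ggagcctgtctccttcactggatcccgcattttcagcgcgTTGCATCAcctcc

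Between 14555 and 16301 probes were detected per array, the median signal ran from 129 to 140 intensity units, and the correlation across genes between the 2 replicates was 0.980 to 0.987, lowest in Control. The transfected genes were read first. The GADD45A probe ILMN_1694075 went against the labels, since its signal was 744 to 1088 where the label lacked GADD45a and 128 to 160, below detection, where the label had it, 6 arrays each (log2 difference -4.08, limma adjusted p = 2.23e-06). The other GADD45A probe, detected on all 12 arrays, went in the same direction. Its signal was 1152 to 1851 where the label lacked GADD45a and 859 to 1127 where the label had it. It was 0.39 lower on the log2 scale (limma adjusted p = 0.0914). The position of either probe relative to the plasmid insert was not analysed here. Groups are therefore named by their labels, and each direction given for GADD45a is that of the labels. Of 4 ING1 probes 1 was detected, and it differed by 0.39 with ING1b (adjusted p = 0.248) and by 0.49 with ING1bΔPHD (adjusted p = 0.292), each averaged over the arrays with and without GADD45a. Of 8 HEK293T markers 6 were detected, with LHX1 and PAX2 below detection. Blood cell, fibroblast, epithelial and endothelial markers were detected for 1 of 6, 2 of 6, 2 of 4 and 0 of 4 genes.

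Across the members, 1 array stood apart from the other 11. Control replicate 2 held the highest level of 31 of the 35 tested members, against 18.3% of all 10645 genes. Measured against the median of the other 11 arrays, the members' median was 0.70 higher there on the log2 scale, and the median over all genes was 0.01 higher. On the other arrays the members' median lay between -0.16 and 0.08, and Control replicate 1 was at 0.07. A lead of more than 0.5 over the highest of the other 11 arrays was seen in 14 members, against 1.59% of all genes, and a lead of more than 1 in 3 members (TRIB3, SLC6A9 and NUPR1), against 0.132%. The comparison of 1 array with 11 was made after its values were seen and has no replicate, so no test is given. The other 5 groups had no such gap: replicate 2 minus replicate 1 had a median over the members of 0.73 in Control, where 33 of 35 were higher in replicate 2, and of 0.01 to 0.10 in the other groups, where 19 to 25 were higher. The summed level of the 6 detected HEK293T markers was 11515 on Control replicate 2, within the range of 7559 to 11975 over all arrays. The summed levels of the fibroblast, blood cell and epithelial markers on Control replicate 2 were 129, 40.3 and 251, each within or at the lower end of its range. Many results below are therefore also given without Control replicate 2. Unless stated otherwise, a result comes from all arrays.

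**Figure D1:**
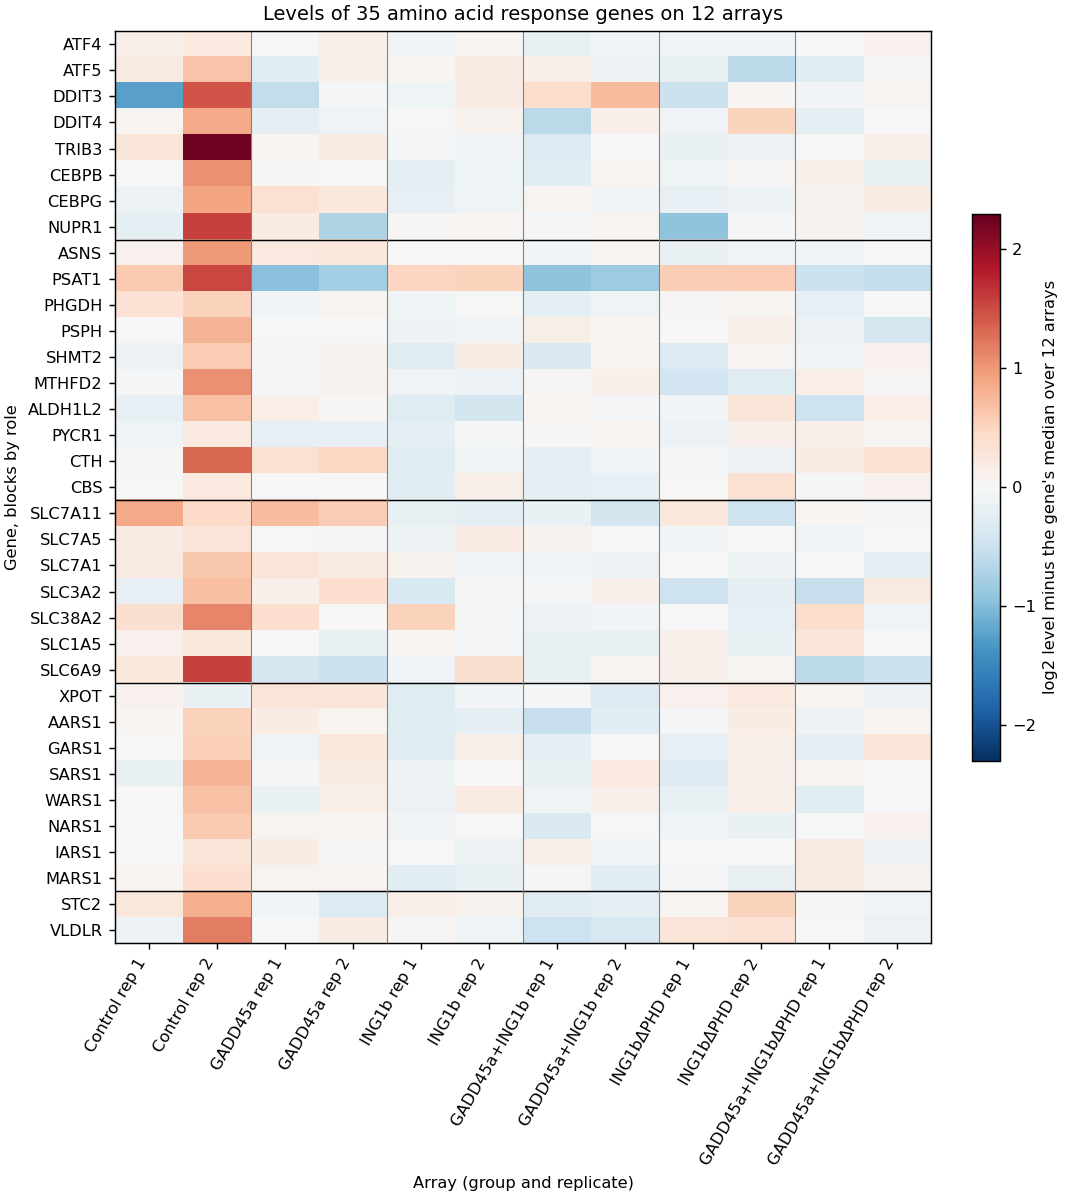
Heat map of the 35 tested members (rows, in blocks by role: regulators, synthesis enzymes, transporters, tRNA charging and export, secreted and receptor proteins) on the 12 arrays (columns). Colour gives the log2 level minus the gene's median over 12 arrays; the Control replicate 2 column is red for nearly all members, and the PSAT1 row is blue on the 6 arrays labelled with GADD45a.

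Among the regulators, all 8 tested members were highest on Control replicate 2, with a median of 1.02 over the other 11 arrays. TRIB3 encodes a pseudokinase induced by ATF4 and CHOP (chromosome 20, 380760 to 397559, GRCh38.p14). Its log2 level was 9.38 and 11.34 in the 2 Control arrays, 9.15 and 9.27 in GADD45a, 9.04 and 9.04 in ING1b, 8.78 and 9.09 in GADD45a+ING1b, 8.95 and 8.96 in ING1bΔPHD, and 9.10 and 9.22 in GADD45a+ING1bΔPHD. Control replicate 2 was thus 4.77-fold above the median of the other 11 arrays, which spanned only 8.78 to 9.38. DDIT3, the stress transcription factor CHOP (chromosome 12, 57516588 to 57520517), differed most between the 2 Control arrays, which held its lowest and its highest level, 6.86 and 9.55. Its other values were 7.53 and 8.05 in GADD45a, 7.99 and 8.28 in ING1b, 8.51 and 8.83 in GADD45a+ING1b, 7.60 and 8.14 in ING1bΔPHD, and 8.03 and 8.17 in GADD45a+ING1bΔPHD. The Control arrays thus enclosed all of them.

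ATF4 itself (chromosome 22, 39520559 to 39522686) varied little at its brightest probe. Its level was 14.09 and 14.17 in Control, 13.95 and 14.09 in GADD45a, 13.86 and 13.99 in ING1b, 13.78 and 13.89 in GADD45a+ING1b, 13.86 and 13.89 in ING1bΔPHD, and 13.94 and 14.05 in GADD45a+ING1bΔPHD. Control replicate 2 was the highest by 0.08. A dimmer ATF4 probe, ILMN_2358457, was also highest there, at 10.93 against at most 10.54 elsewhere, and the third, ILMN_1783394, was highest on GADD45a+ING1bΔPHD replicate 1 (7.41 against 7.08 on Control replicate 2). The C/EBP factors CEBPB and CEBPG, partners of ATF4 on composite elements, were at 12.05 and 11.26 on Control replicate 2 and at most 11.11 and 10.70 on the other arrays. NUPR1, a small stress-induced chromatin protein, was at 7.49 there and at most 6.08 elsewhere, where it was detected on only 4 arrays. DDIT4, an inhibitor of mTORC1, and the ATF4 relative ATF5 were at 12.73 and 8.23, against highest values of 12.36 and 7.79 on the other arrays.

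CHAC1, a glutathione-degrading enzyme and an ATF4 target, was detected on Control replicate 2 alone. Its raw signal there was 207, against 109 to 135 on the other 11 arrays. SLC1A4, a neutral amino acid transporter, was likewise detected only there, at 272 against 120 to 162. Of the 4 member probes detected on a single array, 3 were detected on Control replicate 2, the third being a second probe of NUPR1. Of the 10 further detected probes of tested members, 6 were highest on Control replicate 2, among them those of ASNS (12.01 against at most 10.83) and PSPH (8.40 against at most 7.63). The others were probes of ATF4, SLC3A2 and PYCR1. Those of PYCR1 were at 5.91 and 6.54 there, against highest values of 6.09 and 6.91 elsewhere. The shares over all probes were not counted.

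**Figure D2:**
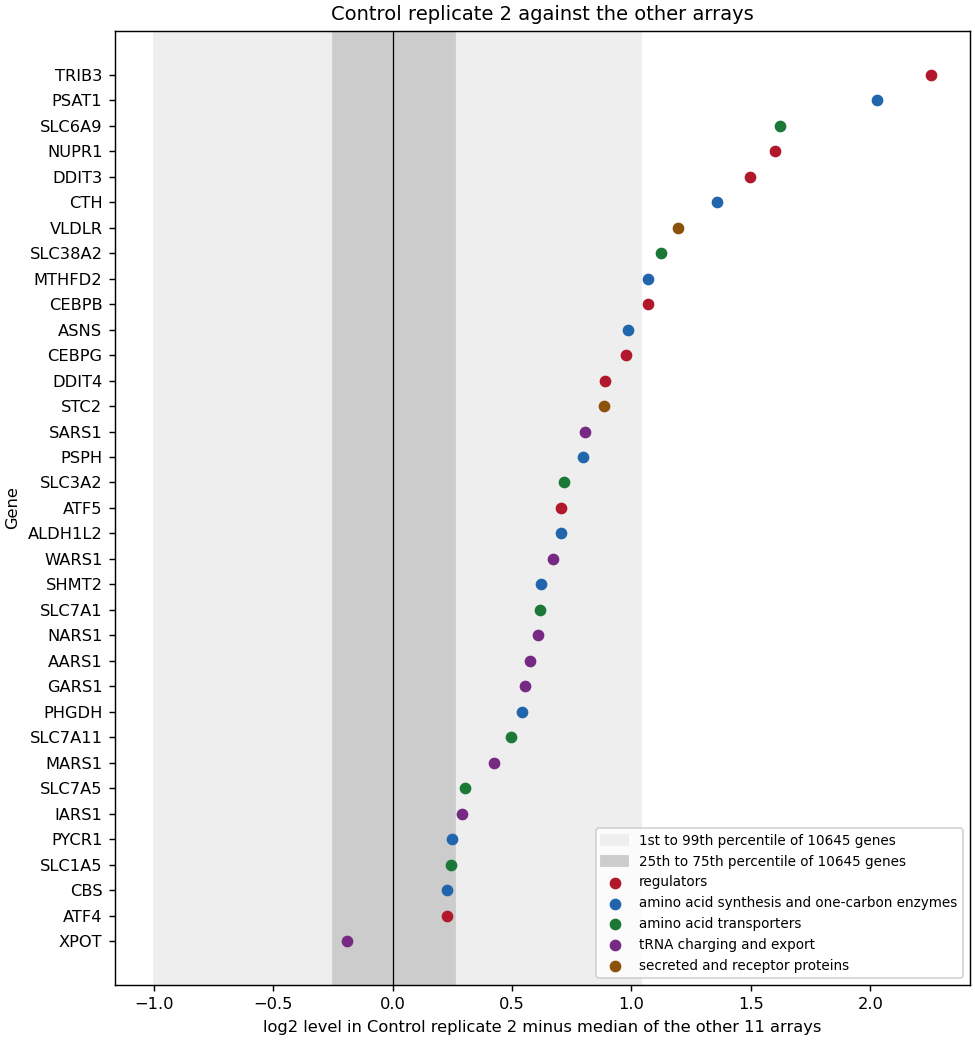
Log2 level on Control replicate 2 minus the median of the other 11 arrays (x axis) for each of the 35 tested members (y axis, ordered by value, coloured by role). Grey bands give the 25th to 75th and the 1st to 99th percentiles of the same quantity over 10645 genes; 10 members lie above the 99th percentile, at 1.04, and XPOT lies below 0.

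Of the 10 enzymes of amino acid synthesis and one-carbon metabolism, 9 were highest on Control replicate 2, with a median of 0.75 over the other 11 arrays. ASNS, asparagine synthetase (chromosome 7, 97851677 to 97928441), was at 12.86 and 13.73 in Control, 12.98 and 13.004 in GADD45a, 12.77 and 12.74 in ING1b, 12.70 and 12.80 in GADD45a+ING1b, 12.59 and 12.67 in ING1bΔPHD, and 12.66 and 12.75 in GADD45a+ING1bΔPHD. The 11 arrays other than Control replicate 2 were lower by 0.73 or more, and Control replicate 2 was 1.98-fold above their median. MTHFD2, a mitochondrial folate enzyme, was 2.10-fold above that median, and CTH, cystathionine gamma-lyase, was 2.56-fold above it. PSPH, the last enzyme of serine synthesis, and SHMT2, which splits serine into glycine and a one-carbon unit, were 1.74-fold and 1.54-fold above it. ALDH1L2, a mitochondrial folate dehydrogenase near the detection limit, was at 6.46 against at most 6.06. PHGDH, the first enzyme of serine synthesis, and PYCR1, which makes proline, led by 0.20 and 0.10 over the highest of the other arrays. CBS, which joins homocysteine and serine, was the exception, at 12.95 against a highest value of 13.08 on ING1bΔPHD replicate 2.

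Of the 7 tested transporters, 5 were highest on Control replicate 2, with a median of 0.62. The largest lead was that of SLC6A9, the glycine transporter GLYT1, at 8.62 against at most 7.42, a level 3.08-fold above the median of the other 11 arrays. SLC38A2, a sodium-coupled neutral amino acid transporter, was 2.18-fold above that median, and SLC3A2, the heavy chain shared by several exchangers, 1.64-fold. SLC7A1, which carries arginine and lysine, was 1.53-fold above it, and SLC7A5, the leucine exchanger LAT1, 1.23-fold. The glutamine transporter SLC1A5 was highest on GADD45a+ING1bΔPHD replicate 1 (10.45 against 10.41 on Control replicate 2). The cystine exchanger SLC7A11 was highest on Control replicate 1. A dimmer probe of SLC3A2, ILMN_1679041, was highest on GADD45a replicate 1 (8.05 against 7.52 on Control replicate 2).

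Of the 8 genes of tRNA charging and export, 7 were highest on Control replicate 2, and their leads were smaller, with a median of 0.56 over the other 11 arrays. SARS1, seryl-tRNA synthetase, was 1.75-fold above the median of the other 11 arrays, WARS1 (tryptophan) 1.59-fold, NARS1 (asparagine) 1.53-fold, AARS1 (alanine) 1.49-fold and GARS1 (glycine) 1.47-fold. MARS1 (methionine) and IARS1 (isoleucine) were 1.34-fold and 1.22-fold above it. XPOT, which exports tRNA from the nucleus, was the only member below that median, at 8.25 against 8.44. The secreted glycoprotein STC2 and the lipoprotein receptor VLDLR were at 11.81 and 7.48, against highest values of 11.48 and 6.62 elsewhere.

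Genes of the same and of neighbouring pathways differed on Control replicate 2. Of 18 measured further ATF4 targets and stress genes, 11 (61.1%) were highest there, with a median of 0.54 over the other 11 arrays. EIF4EBP1, a repressor of cap-dependent translation, was at 9.12 against at most 7.89, and the arginine transporter SLC7A3 at 8.87 against at most 7.69. Other genes of that list were below the median of the other 11 arrays. These were PPP1R15A (-0.41), SQSTM1 (-0.41), MAP1LC3B (-0.17), ATF3 (-0.10) and BBC3 (-0.09). Of 15 endoplasmic reticulum chaperones and XBP1 or ATF6 targets, 1 was highest there, with a median of -0.27. That gene was XBP1, at 12.76 against at most 12.41. The chaperone HSPA5 (BiP) was at 8.41, within a range of 8.32 to 9.19 on the other arrays. Of 13 measured eIF2 kinases and eIF2 control genes, 1 was highest there (median -0.13), and of 7 NRF2 targets 1 (median -0.21). Of 11 other cytosolic and 16 mitochondrial tRNA synthetases, 3 each were highest there, with medians of -0.05 and -0.03. Of 14 other one-carbon and folate genes 5 were, with a median of 0.16. The lists are not separate. EPRS1, which was highest there, counts among both the further ATF4 targets and the other cytosolic synthetases. PPP1R15A counts among both the further ATF4 targets and the eIF2 genes, and the NRF2 targets include the member SLC7A11. These lists came from general knowledge but were chosen with earlier results of these data known. They are described by counts and medians beside the 18.3% of all genes, and no test is given.

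The median correlation between members was lower without the same array. Over the 595 pairs of tested members the median Pearson correlation was 0.55 across the 12 arrays and 0.11 without Control replicate 2, with 94.5% and 59.2% of pairs above 0. ASNS and TRIB3 correlated at 0.95 across 12 arrays and at 0.63 without Control replicate 2, while DDIT3 and TRIB3 went from 0.56 to -0.53. The correlation with TRIB3 rose without that array for ATF4 (0.72 to 0.92), SLC7A11 (0.37 to 0.64) and XPOT (-0.20 to 0.20). These are descriptions over arrays that share their groups. Most tested members were highest on Control replicate 2, so the lower median without it largely restates that pattern. The same correlations were not computed for other genes.

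In the 5 comparisons with Control, the members were mostly lower than in Control, and these comparisons share the 2 Control arrays. A member is said to rise or fall where the limma p-value adjusted over all 10645 genes was under 0.05 (n = 2 per group, log2 differences of group means). In GADD45a against Control, 33 of 35 members were below 0 with a median of -0.25, and 1 fell (0.47% of all genes fell). In ING1b against Control, 35 of 35 were below 0 with a median of -0.43 and 0 members passed limma (0.432% of all genes did), with 11 members at an unadjusted p under 0.05 (10% of all genes were) and 0 members called with the replicate block (0.798% of all genes). In GADD45a+ING1b the count below 0 was 34, the median -0.43, and 1 member fell (1.11% of all genes). In ING1bΔPHD it was 33, with a median of -0.36, and 0 members passed limma (0% of all genes did), with 11 at an unadjusted p under 0.05 (11.1% of all genes were) and 0 called with the replicate block (0.0282% of all genes). In GADD45a+ING1bΔPHD it was 34, with a median of -0.42, and 1 fell (0.291%). The medians over all genes were between -0.03 and 0.00.

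Without Control replicate 2 the same medians of the members were 0.01, -0.10, -0.18, -0.03 and -0.01, in the order of the groups just given, and those of all genes were between -0.04 and -0.01. The counts below 0 became 16, 28, 24, 22 and 18 of 35. Without Control replicate 1 instead, which leaves Control replicate 2 as the only control, the members called became 8, 9, 11, 6 and 11, while 1.38%, 0.62%, 4.01%, 0.216% and 2.15% of all genes were called. Between the fits with either Control array alone, 19, 7, 11, 12 and 18 of the 35 members changed sign. In such a fit the lone Control array is taken to have the spread of the groups with 2 arrays. Control replicate 2 was singled out after the members were seen to be high on it. Calls with it as the only control are therefore a description and no test. TRIB3 shows the dependence in GADD45a+ING1b against Control. It was -1.43 (limma adjusted p = 0.13) with both Control arrays, -2.41 with Control replicate 2 alone and -0.44 with Control replicate 1 alone. ASNS in the same comparison was -0.54 (limma adjusted p = 0.241), -0.98 and -0.10, in the same order.

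**Figure D3:**
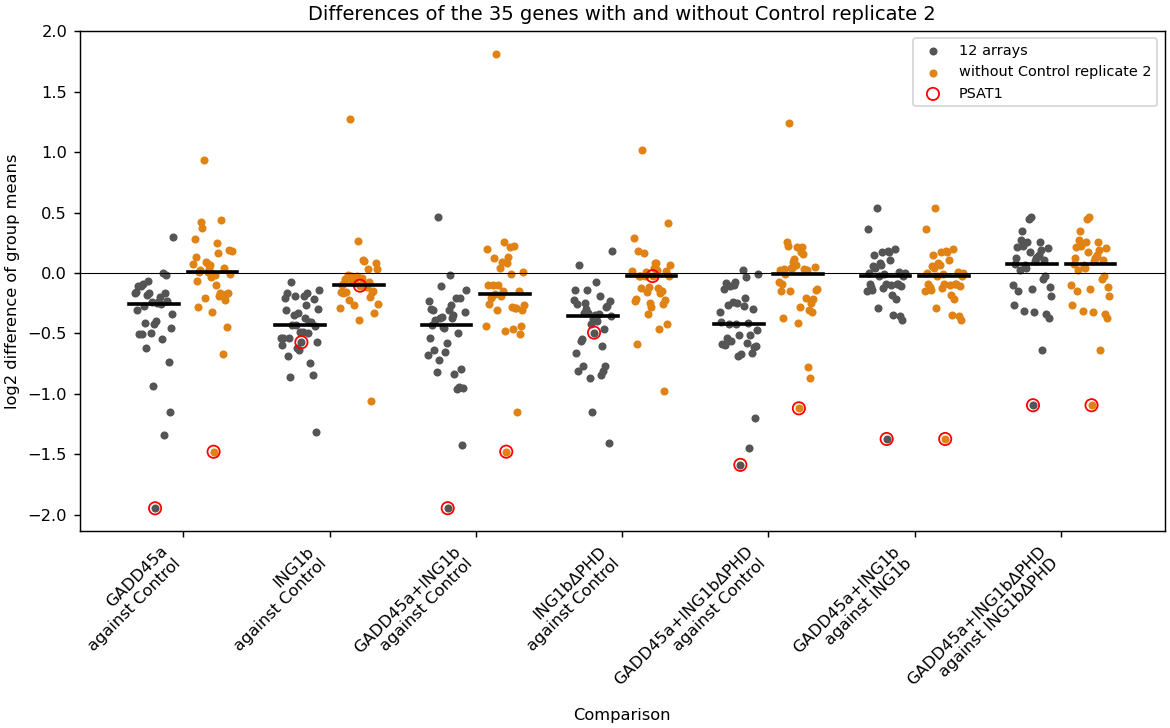
Log2 differences of group means for the 35 tested members (points) in 7 comparisons, from all 12 arrays (grey) and without Control replicate 2 (orange), with black bars at the members' medians and PSAT1 ringed in red. In the 5 comparisons with Control the medians move from between -0.43 and -0.25 to between -0.18 and 0.01; in the 2 comparisons without Control arrays they stay at -0.03 and 0.08, and PSAT1 is lowest in each comparison of arrays labelled with GADD45a.

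DDIT3 and SARS1 were the 2 members whose sign turned with the choice of Control array in all 5 comparisons. In GADD45a against Control it differed by -0.41 (limma adjusted p = 0.809), by 0.93 without Control replicate 2 (adjusted p = 0.388) and by -1.76 without Control replicate 1 (adjusted p = 0.0324). In GADD45a+ING1b against Control the difference was 0.47 (adjusted p = 0.739). Without Control replicate 2 it was 1.81 (adjusted p = 0.0371; 0.46% of all genes rose), and without Control replicate 1 it was -0.88. The average effect of ING1b on DDIT3 was 0.40 (adjusted p = 0.756) with 12 arrays and 1.08 (adjusted p = 0.0426; 0.798% of all genes rose) without Control replicate 2. Since Control replicate 1 holds the lowest DDIT3 level of all 12 arrays, no direction against Control is given for this gene.

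PSAT1 fell in the average over backgrounds on the arrays labelled with GADD45a. It encodes phosphoserine aminotransferase, the second enzyme of serine synthesis (chromosome 9, 78297125 to 78330093, GRCh38.p14), and was read by probe ILMN_1692938. Its log2 level was 11.77 and 12.71 in Control, 11.66 and 11.68 in ING1b, and 11.74 and 11.75 in ING1bΔPHD. On the arrays labelled with GADD45a it was 10.20 and 10.39 in GADD45a, 10.24 and 10.35 in GADD45a+ING1b, and 10.68 and 10.63 in GADD45a+ING1bΔPHD. All 6 arrays labelled with GADD45a lay below all 6 without it, by at least the gap from 10.68 to 11.66. Averaged over the 3 backgrounds (empty vector, ING1b and ING1bΔPHD), PSAT1 was 2.77-fold lower with the GADD45a label (log2 -1.47, SE 0.142, 95% interval -1.79 to -1.15, limma adjusted p = 0.000636). It was the only member called in that average, in which 1.69% of all genes fell. The other PSAT1 probe was detected on 0 arrays, with signals of 97.1 to 119, so the result rests on 1 probe.

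By background, PSAT1 differed by -1.95 between GADD45a and Control (SE 0.247, adjusted p = 0.00944), by -1.37 between GADD45a+ING1b and ING1b (adjusted p = 0.0598) and by -1.09 between GADD45a+ING1bΔPHD and ING1bΔPHD (adjusted p = 0.277). In the last pair of comparisons 0 members passed limma, while 0.357% and 0.0939% of all genes did, and PSAT1 was the 1 member with an unadjusted p under 0.05 in each, as were 6.62% and 6.59% of all genes. With the replicate number as a block the second passed (adjusted p = 0.0309; 0.479% of all genes fell) and the third did not (adjusted p = 0.122). Without Control replicate 2, which enters these 2 comparisons only through the estimate of spread, both passed (adjusted p = 0.00378 and 0.031, with 0.225% and 0.0752% of all genes falling). The average was -1.32 without Control replicate 2 (adjusted p = 0.000171; 0.986% of all genes fell), and the difference between GADD45a and Control was -1.48 (adjusted p = 0.0142; 0.047%). Against Control, PSAT1 also fell in GADD45a+ING1b (-1.95, adjusted p = 0.00323) and in GADD45a+ING1bΔPHD (-1.59, adjusted p = 0.0353). Without Control replicate 2 these were -1.48 (adjusted p = 0.00503; 0.15% of all genes fell) and -1.12 (adjusted p = 0.0949). Where GADD45a was absent from the label, PSAT1 was -0.57 in ING1b (adjusted p = 0.467) and -0.49 in ING1bΔPHD (adjusted p = 0.482) against Control, which became -0.10 and -0.03 without Control replicate 2. Leaving out either GADD45a array raised the adjusted p of GADD45a against Control to 0.0795 and 0.0643.

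**Figure D4:**
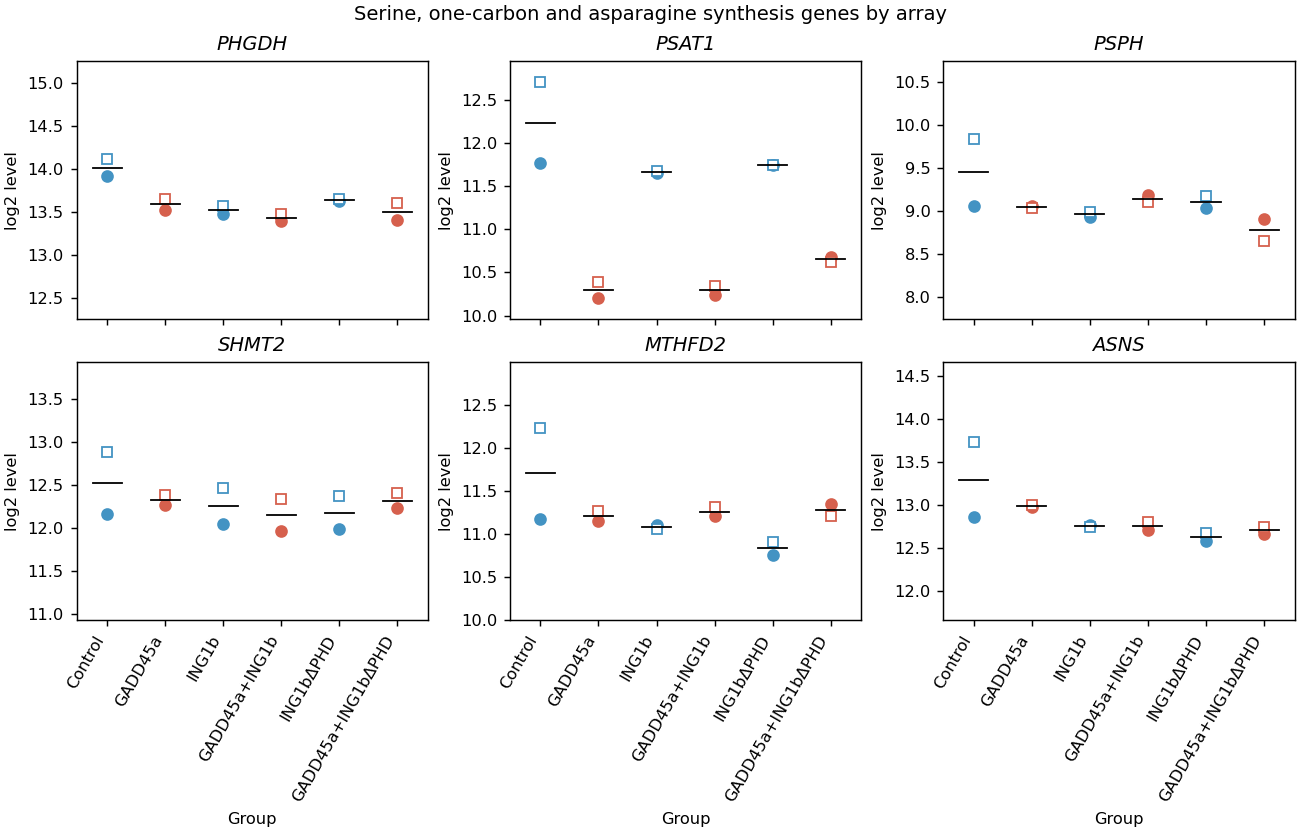
Log2 level by group of the serine synthesis genes PHGDH, PSAT1 and PSPH, the one-carbon genes SHMT2 and MTHFD2, and ASNS; each panel spans 3 log2 units. Filled circles are replicate 1, open squares replicate 2, bars group means (n = 2), red the groups labelled with GADD45a and blue the others; PSAT1 alone separates red from blue, at 10.20 to 10.68 against 11.66 to 12.71.

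The enzymes on either side of PSAT1 were not called in the average effect of GADD45a. PHGDH, one step before it, differed by -0.22 (SE 0.0834, limma adjusted p = 0.202), with an interval of -0.40 to -0.03. PSPH, one step after it, differed by -0.18 (adjusted p = 0.487, interval -0.47 to 0.10), SHMT2 by -0.05 (interval -0.39 to 0.28) and MTHFD2 by 0.04 (interval -0.31 to 0.39). ASNS differed by -0.08 (interval -0.38 to 0.22) and TRIB3 by -0.35 (interval -0.94 to 0.24). ATF4 differed by -0.03 (interval -0.20 to 0.15) and DDIT3 by 0.12 (interval -0.71 to 0.94). Leaving out Control replicate 2 gave -0.02 for TRIB3, 0.07 for ASNS and -0.01 for ATF4. It gave -0.18 for PHGDH, -0.05 for PSPH, 0.07 for SHMT2 and 0.22 for MTHFD2. DDIT3 differed by 0.57 without Control replicate 2 (adjusted p = 0.113), which passed with the replicate block (adjusted p = 0.0167; 2.67% of all genes rose). Of the 35 members 25 were below 0, with a median of -0.08 against -0.01 over all genes, and 19 were below 0 with a median of -0.01 without Control replicate 2. In the comparisons free of Control arrays, the members' median was -0.03 in GADD45a+ING1b against ING1b and 0.08 in GADD45a+ING1bΔPHD against ING1bΔPHD, and each of these signs turned under 1 other scaling (0.07 with 75th percentile scaling and -0.01 with median scaling).

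After PSAT1, STC2 and SLC6A9 had the largest average differences with the GADD45a label. STC2 was also lower on all 6 arrays labelled with GADD45a (10.66 to 10.93) than on the 6 others (11.02 to 11.81), as were PSAT1 and 1.52% of all genes, and 0 members were higher on all 6 (0.808% of all genes). Its average difference was -0.48 (SE 0.123, adjusted p = 0.0742), with the replicate block it passed (adjusted p = 0.0365), and without Control replicate 2 it was -0.38 and did not pass (adjusted p = 0.131, or 0.0681 with the block). SLC6A9 differed by -0.73 (SE 0.196, adjusted p = 0.0864), passed with the replicate block (adjusted p = 0.0351), and its groups overlapped. It was -0.51 without Control replicate 2 (adjusted p = 0.0595, or 0.0236 with the block, where 3.98% of all genes fell). With the block 5.28% of all genes fell in this average. Blocked calls against Control added SLC6A9 in GADD45a (-1.34, adjusted p = 0.0459; 2.3% of all genes fell) and in GADD45a+ING1bΔPHD (-1.45, adjusted p = 0.0327; 3.48%), and PHGDH in the latter (-0.51, adjusted p = 0.0337). In GADD45a+ING1b against Control they added PHGDH (-0.58, adjusted p = 0.017), AARS1 (-0.68, adjusted p = 0.0273) and STC2 (-0.79, adjusted p = 0.0409), where 4.51% of all genes fell. SLC7A11 was added there too (-0.94, adjusted p = 0.0155), but only as a description. It passed the detection filter only through Control replicate 1 and the GADD45a arrays. As 0 GADD45a+ING1b arrays detected it, its fold is a bound, at least 1.01-fold lower. Without Control replicate 2 none of these added calls against Control passed with the block.

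SLC7A11, the cystine and glutamate exchanger (chromosome 4, 138164097 to 138242349), was near the detection limit. It was detected on 3 arrays, Control replicate 1 and both GADD45a arrays, and so passed the detection filter only through arrays without an ING1b plasmid, where it was high. Its difference is therefore a description of a gene that the filter kept on that side, and without the filter it was not called (adjusted p = 0.0512). Its log2 level was 6.15 and 5.73 in Control, 5.99 and 5.85 in GADD45a, 5.11 and 5.08 in ING1b, 5.13 and 4.86 in GADD45a+ING1b, 5.53 and 4.81 in ING1bΔPHD, and 5.33 and 5.23 in GADD45a+ING1bΔPHD. The 4 arrays without any ING1b plasmid were above the other 8, and the share of all genes with such a gap was not counted. Averaged over GADD45a status, full-length ING1b differed from its absence by -0.88 (SE 0.166, limma adjusted p = 0.0318; 0.423% of all genes fell). As 0 of the 4 ING1b arrays detected it, the fold is a bound, at least 1.04-fold lower. The call held without Control replicate 2 (-0.99, adjusted p = 0.0436; 0.122% of all genes fell) and was lost without Control replicate 1 or without any 1 of the GADD45a, ING1b and GADD45a+ING1b arrays (adjusted p = 0.068 to 0.115). The truncated protein differed from its absence by -0.71 (adjusted p = 0.233), and full-length from truncated by -0.18 (adjusted p = 0.722). AARS1 had the next lowest adjusted p in the average of ING1b, at -0.52 (SE 0.133, adjusted p = 0.107), and passed with the replicate block (adjusted p = 0.0305; 1.31% of all genes fell). It was -0.40 without Control replicate 2 and did not pass (adjusted p = 0.245, or 0.0807 with the block).

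The comparison of full-length with truncated ING1b, averaged over GADD45a status, bears on the PHD domain, which in ING1 binds a methylated form of histone H3. In it 0 members passed limma, while 1.45% of all genes did, and 1 member had an unadjusted p under 0.05, as did 13.4% of all genes. The members' differences ran from -0.35 in VLDLR to 0.42 in DDIT3 with a median of -0.06. The truncated protein averaged over GADD45a status also had 0 members called (0% of all genes), with 7 at an unadjusted p under 0.05 (11% of all genes were) and a median of -0.21, which was -0.07 without Control replicate 2. The interactions of GADD45a with ING1b and with ING1bΔPHD had 0 called members and 0 called genes (0%), with 1 and 3 members at an unadjusted p under 0.05, beside 4.15% and 4.56% of all genes. Their medians over the members were 0.30 and 0.35 with both Control arrays and -0.02 and -0.03 without Control replicate 2. Those of all genes were -0.01 and 0.01.

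Replicate 2 against replicate 1, fitted as a block over the 6 groups, had 5 members higher and 0 lower. Of all 10645 genes, 969 (9.1%) were higher and 989 were lower. The 5 were GARS1 (0.39, limma adjusted p = 0.00841), WARS1 (0.35, adjusted p = 0.0181), SHMT2 (0.37, adjusted p = 0.0229), SLC3A2 (0.44, adjusted p = 0.0232) and DDIT4 (0.43, adjusted p = 0.0292). Without Control replicate 2 the count was also 5, with DDIT3 called in place of DDIT4 and 9.27% of all genes higher. GARS1 was higher in replicate 2 in each of the 6 groups, from 12.32 to 12.66 in GADD45a for example. The median over the members was 0.19, and 0.07 without Control replicate 2. For SLC3A2 the difference ran from 0.14 to 0.50 over the alternatives run. A dimmer SLC3A2 probe, ILMN_1679041, had a lower raw signal in replicate 2 in all groups but ING1bΔPHD. It went from 353 to 299 in Control, 353 to 316 in GADD45a and 316 to 276 in ING1b. In GADD45a+ING1b it went from 295 to 271, in ING1bΔPHD from 292 to 308 and in GADD45a+ING1bΔPHD from 295 to 225.

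Among the neighbouring lists, further ATF4 targets moved in both directions with the GADD45a label. Of 18 measured, 2 rose and 1 fell in the average over backgrounds, where 1.02% and 1.69% of all genes rose and fell. GDF15, a stress-induced secreted cytokine, fell by 1.43 on the log2 scale (SE 0.202, limma adjusted p = 0.00633). It was at 6.12 to 8.24 on the arrays without the label and 5.17 to 6.21 on those with it, and these ranges overlapped. The levels with the label were near the detection limit, since SLC7A11 at 5.73 on Control replicate 2 was undetected. The size of the GDF15 differences is therefore uncertain. ATF3, a stress transcription factor, rose by 0.75 (adjusted p = 0.0282), and the autophagy receptor SQSTM1 rose by 0.44 (adjusted p = 0.0415; 0.0867 without Control replicate 2). GDF15 was also higher with full-length than with truncated ING1b (1.24, adjusted p = 0.0404). Of 15 endoplasmic reticulum genes, 1 passed in the average of GADD45a, CRELD2, which differed by -0.36 (adjusted p = 0.0491; 0.0663 without Control replicate 2). CRELD2 rose with full-length ING1b (0.69, adjusted p = 0.00725), where 1.11% of all genes rose.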

How the data were processed

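RNA of the 12 cultures was labelled as biotinylated cRNA and hybridised to Illumina bead arrays. The authors deposited an average bead intensity and a detection p-value per probe, made with GenomeStudio 2011.1 per the submitters' processing notes. Its settings are not stated in those notes, the labels or the file headers. A normalized intensity table that the authors deposited served as an alternative. Here, intensities were background-corrected from the detection p-values (nec), given an offset of 16, quantile-normalized and taken to log2, which shrinks differences of dim probes. limma 3.58.1 in R 4.3.3 fitted 1 mean per group over all 12 arrays, with Benjamini-Hochberg adjustment over 10645 genes, and was tested on simulated data. Precision is limited by 2 arrays per group.

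The members and lists were chosen with earlier results of these data known. Named with values were 6 core members, members passing in any comparison, undetected members by signal, and up to 4 passing genes per context list. The other members described by level were named after their values were seen. So were the context genes described by their level on Control replicate 2. The main fits held no replicate term, so their p-values ignore any pairing of arrays by replicate number. The replicate number was a block in alternative fits and in the replicate comparison. Differences between replicates correlated at 0.246 to 0.477 in all 15 pairs of groups (minimum 0.1). Alternatives changed the scaling, background, offset, filter, probe choice, threshold, fit, block and arrays. Leaving out Control replicate 2 together with the block, and the recount of members highest on it, were chosen after seeing the data. Names came from the platform's probe table: 30113 probes had 1 symbol, 8 several and 17202 none.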

Additional observations from a re-analysis of the deposited data

How the results depend on the processing

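No called value changed sign under the alternatives run, while some that were not called did, such as DDIT3 against Control. Counts of members called stood as follows. In GADD45a against Control, 1 became 3 with median scaling, 2 with the replicate block and 0 with only the groups compared, and 0 to 8 with 1 array left out (0 without either GADD45a array, 8 without Control replicate 1). In GADD45a+ING1b against Control, 1 became 15 with median scaling, 5 with the block, 4 with trend and robust eBayes or no background correction, 2 with detection on all 12 arrays, an offset of 50, the authors' deposited values or the block without Control replicate 2, and 0 with only the groups compared; leaving out 1 array gave 1 to 11 (11 without Control replicate 1, 2 without Control replicate 2 or either ING1bΔPHD array). In GADD45a+ING1bΔPHD against Control, 1 became 3 with median scaling or the block, 2 with trend and robust eBayes, 0 at an adjusted p under 0.01, without the detection filter, with probes tested singly or only the groups compared, 11 without Control replicate 1 and 0 without any other array. ING1b and ING1bΔPHD against Control went from 0 to 9 and 6 without Control replicate 1 and were 0 without each other array. GADD45a+ING1b against ING1b went from 0 to 1 (PSAT1) with array weights, trend and robust eBayes, median scaling, no background correction, an offset of 50, the block with or without Control replicate 2, and without either Control array (range 0 to 1). GADD45a+ING1bΔPHD against ING1bΔPHD went from 0 to 1 with the block without Control replicate 2 and without either Control array (range 0 to 1).

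The average of GADD45a went from 1 to 5 with median scaling, 3 with trend and robust eBayes, 3 with the block (PSAT1, SLC6A9 and STC2) or the block without Control replicate 2 (DDIT3 in place of STC2), and 2 with no background correction or an offset of 50; leaving out 1 array gave 1 to 5 (5 without Control replicate 1). The average of ING1b went from 1 to 2 with trend and robust eBayes, 2 with the block (SLC7A11 and AARS1) or the block without Control replicate 2 (DDIT3 in place of AARS1), and to 0 at an adjusted p under 0.01, with detection on all 12 arrays, no filter or probes singly; leaving out 1 array gave 0 to 9 (9 without Control replicate 1, 2 without Control replicate 2, 0 without any GADD45a, ING1b or GADD45a+ING1b array). The average of ING1bΔPHD and its interaction with GADD45a went from 0 to 1 without Control replicate 1 (ranges 0 to 1), and full-length against truncated ING1b from 0 to 1 (DDIT3) with the block without Control replicate 2. The replicate term went from 5 to 1 at an adjusted p under 0.01, 0 at 1.5-fold and 3 with the mean over probes, reached 7 with trend and robust eBayes or no background correction, and was 3 to 5 with 1 array left out (3 without either GADD45a+ING1b, ING1b or ING1bΔPHD array). The cause of these shifts was not tested.

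PSAT1 passed in the average of GADD45a under all 27 alternatives (-1.66 to -1.32). SLC7A11 in the average of ING1b missed the threshold in 12 of 27 (-1.69 to -0.34). Members highest on Control replicate 2 numbered 31 to 33. Median scaling moved the median of all genes to -0.23, -0.30 and -0.20 in GADD45a, GADD45a+ING1b and GADD45a+ING1bΔPHD against Control, to -0.24 in GADD45a+ING1b against ING1b and to -0.19 in the average of GADD45a; the members' medians became -0.52, -0.73, -0.63, -0.16 and -0.24, and the calls that were lower went from 71.4% to 94%, 41.3% to 91.7%, 56.4% to 91.6%, 73.7% to 87.9% and 62.3% to 96.4%. Over all 12 arrays the replicate block changed no other member's call than those given. Probes near background limit NUPR1, ALDH1L2 and SLC7A11, and GDF15 among the context genes.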
